A study of Mus musculus with 3 samples.

Results

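The genes described here encode the metalloproteases that cut the extracellular matrix and shed proteins from cell surfaces, and their inhibitors. Members are all genes with a probe set of a single symbol that begins with Mmp, Adam or Timp followed by a digit, or with Adamts. This gave 83 of the 19938 genes measured, read by 108 probe sets: 22 matrix metalloproteases (MMPs), 34 ADAMs, 23 ADAMTS and ADAMTS-like genes and 4 tissue inhibitors of metalloproteases (TIMPs). The choice used symbols only and no measured value.

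MMPs are made as inactive precursors, most of them secreted and some anchored in the plasma membrane, and together they degrade collagens, proteoglycans and basement membrane. ADAMs are membrane proteins; some release growth factors, cytokines and receptors from the cell surface, while others have lost the protease site and act in adhesion. ADAMTS proteases are secreted and cut proteoglycans and procollagens, ADAMTS-like proteins share their ancillary domains without a protease, and TIMPs bind the catalytic site of many of these enzymes. In sarcomas and other soft tissues much of this family is known to be made by fibroblasts, macrophages and neutrophils as well as by tumor cells.

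Expression was measured on Affymetrix MoGene-1_0-st-v1 arrays, 1 for each of 3 groups of mouse sarcoma RNA. EWS/ATF1 is the fusion oncoprotein of clear cell sarcoma, made of EWSR1 sequence and the CREB-family factor ATF1. Per the labels, the array labelled control carries RNA of cultured tumor cells with 0 microg/ml doxycycline, and the array labelled high doxycycline RNA of cultured cells 24 h after 0.2 microg/ml doxycycline. The array labelled tumor carries RNA of a tumor resected from an EWS/ATF1-inducible mouse that received doxycycline for 3 months. All 3 samples are labelled as tumor cells of a soft tissue sarcoma, on a mixed C57/BL6, 129 and ICR background. The promoter that drives the fusion, the animals' ages and the number of cell lines are not given in the sources used here, and the tumor's label carries another identifying number than those of the cultures.

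Most marker genes of several tissue cell types were brighter on the control array, labelled as a culture, than on the tumor array. All 10 fibroblast markers exceeded the median of the control array, against 6 on each of the others, and the collagen gene Col1a2 had intensities of 10078 on the control array, 302 on high doxycycline and 270 on tumor. All 10 macrophage markers did so too, against 2 for high doxycycline and 1 for tumor, and the complement gene C1qb had 5449, 104 and 89.2. For 8 endothelial markers the counts were 7, 2 and 2. These values go against the labels of culture and tumor, so directions in what follows hold only between arrays as labelled. Whether the control and tumor arrays were exchanged before deposit was not tested. If they were, the comparison labelled tumor against high doxycycline would be the one between cultures. Each value of Mmp11, Adamts5 and Mmp17 below would have to be read so. The comparison labelled high doxycycline against control would then set a culture against the tumor, and the one labelled tumor against control would be reversed. Members given below as dimmer than on control would then be those brighter in the tumor. Values are deposited intensities on a linear scale, and array medians were 250 (control), 227 (high doxycycline) and 220 (tumor). With 1 array per group nothing could be tested, and no value has a replicate error.

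More members were at least 2-fold dimmer than brighter on the arrays labelled high doxycycline and tumor, each compared with the array labelled control, which both comparisons share. The dimmer members were mostly MMP and ADAMTS genes. Median log2 differences of high doxycycline and of tumor from control were -0.31 and -0.33 over all 22 MMPs. The medians were -0.45 and -0.54 over all 23 ADAMTS and ADAMTS-like genes, and 0.00 and -0.020 over all 34 ADAMs. The 22 ADAMs best known from testis and epididymis lay below the median of every array, as did Adam12, Adam22 and Adam28. Over the 9 bright ADAMs, as defined below, the medians were -0.21 and -0.23. Over all 83 members the medians were -0.19 and -0.19. Of all 83 members, 14 were at least 2-fold dimmer on high doxycycline than on control (16.9%, against 5.55% of all genes) and 3 were at least 2-fold brighter (3.61%, against 10.6%). Between tumor and control 17 members were dimmer (20.5%, against 6.82%) and 3 brighter (3.61%, against 11.3%). Between tumor and high doxycycline 2 members were brighter (2.41%, against 0.903%) and 1 was dimmer (1.20%, against 1.14%). Folds are differences of log2(intensity + 1), which understates changes of dim genes. The shares describe these arrays and are not a test. Fewer cells of a type and less RNA per cell cannot be told apart in such bulk samples, and the part of the tissue cells above in the members' differences was not tested.

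More members were dim than bright. In all, 45 of the 83 lay below the array median on each of the 3 arrays, 27 lay above it on all 3, and 8 did so on control alone. The share above the median was 45.8% for control, 33.7% for high doxycycline and 34.9% for tumor, against 55.2%, 55.1% and 55.1% of all genes. A gene is called bright in a comparison where the brighter of the compared arrays is above its own median, which held for 38, 38 and 30 members in the 3 comparisons as ordered above. Of bright members 13 were dimmer and 3 brighter in the first comparison (8.45% and 17.4% of all bright genes were), 16 and 3 in the second (10.2% and 18.5%) and 1 and 2 in the third (1.94% and 1.58%). A member that was bright only through the control array of a pair, such as Mmp2, Adamts5 and Mmp23 for high doxycycline or Mmp2 and Adam33 for tumor, passed because it was high there, so these counts are descriptions.

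The precision is limited by the number of arrays, and no error between samples can be given. Probe sets of the same gene share the RNA and the arrays, so how far they disagreed is not such an error. Among genes with several bright probe sets, the range of their log2 differences had a 90th percentile of 1.4 where high doxycycline was compared with control, 1.6 where tumor was, and 0.32 where tumor was compared with high doxycycline. A 2-fold difference, 1 on the log2 scale, is below that percentile in the comparisons with control and above it in the third. In the third comparison 34.1% of all genes had identical values on both arrays, and the probe sets of Adamts9 ran from -1.08 to 0.00. The 0.32 therefore does not show that a 2-fold difference there exceeds the error between samples.

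**Figure D1:**
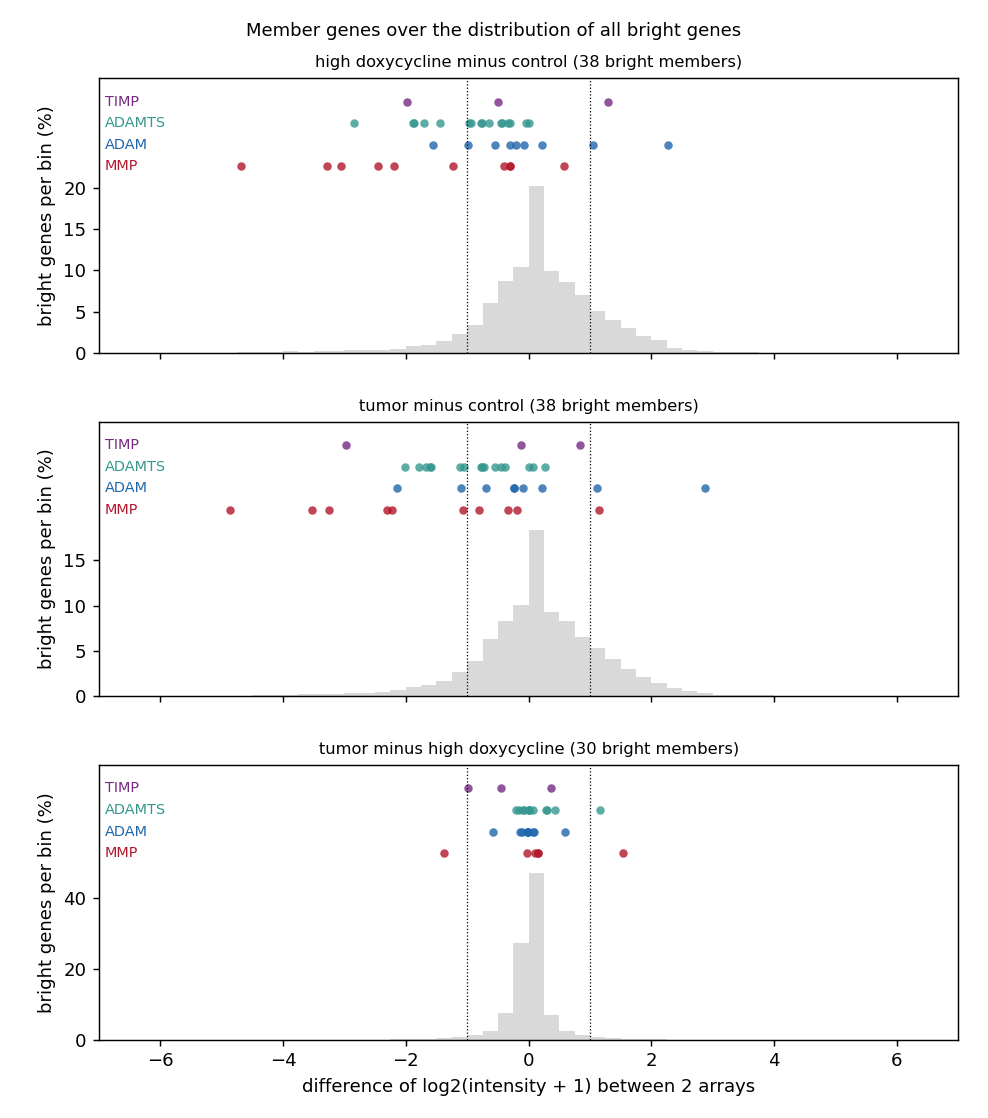
The x axis gives the difference of log2(intensity + 1) in each of the 3 comparisons, grey bars the percentage of all bright genes per bin of 0.25, and coloured points the bright members by family, with dotted lines at a 2-fold difference. In the comparisons with the array labelled control the points lie mostly left of 0 and reach -4.68 and -4.87, whereas between tumor and high doxycycline they reach only from -1.38 to 1.54.

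The gelatinases, Mmp2 and Mmp9, cut denatured collagen and the type IV collagen of basement membranes, and each differed more than 8-fold between the array labelled control and the other arrays. Mmp2 had an intensity of 5383 on the control array, 209 on high doxycycline and 183 on tumor. It was 25.6-fold dimmer on high doxycycline and 29.3-fold dimmer on tumor than on control. Mmp9, which neutrophils and macrophages are known to make, had 1250, 149 and 130 on the same arrays (8.36-fold and 9.52-fold dimmer). Both genes were above the array median on control alone and below it on the other arrays.

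The stromelysin gene Mmp3, whose product cuts proteoglycans and activates other MMP precursors, had the same order, with 816 on the control array, 83.1 on high doxycycline and 70.1 on tumor (9.72-fold and 11.5-fold dimmer). Mmp13, the main interstitial collagenase of the mouse, had 480, 105 and 102 (4.55-fold and 4.68-fold dimmer). Mmp8, the collagenase of neutrophils, had 200, 47.5 and 41.8. It passed the same fold (4.14 and 4.69) but was below the array median on all 3 arrays and is not among the bright members. For all of these genes the array labelled control stood alone, and the other arrays lay within 1.18-fold of each other.

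Mmp11, stromelysin-3, departed from that order and was brightest on the array labelled tumor. It had 1233 on the control array, 937 on high doxycycline and 2732 on tumor. The tumor value was 2.91-fold above high doxycycline and 2.21-fold above control. Mmp11 was the only MMP at least 2-fold brighter on tumor than on either of the other arrays, although under quantile normalization its log2 difference from control of 1.15 became 0.90.

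The secreted MMPs that remained dim were Mmp1a, Mmp1b, Mmp7, Mmp10, Mmp12, Mmp20, Mmp21, Mmp27 and Mmp28. None of them exceeded the median of any array. Mmp12, the elastase of macrophages, had 124, 93.4 and 90.9, and Mmp10, the other classical stromelysin, had 111, 80.8 and 80.8. Mmp19 was the exception among the less studied members, with 860, 697 and 752, all above the array medians and within 1.23-fold of control.

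Mmp13, Mmp12, Mmp1b, Mmp3, Mmp1a, Mmp10, Mmp8, Mmp27, Mmp20 and Mmp7 follow each other in this order in the RefSeq gene table with no other protein-coding gene between them. Of these 10 neighbours, Mmp13 and Mmp3 exceeded the median of the control array, and none exceeded those of the others. Promoters of such MMP genes are a textbook site of AP-1, the dimer of Fos and Jun proteins, and Fos stands in the title of the series. The promoter windows of 52 of the 83 members were listed by RefSeq (GRCm38.p6), each of 300 bases, from 250 before to 50 after a start. The AP-1 letters TGAGTCA, or TGACTCA on the other strand, stood in 10 of 57 member windows (17.5%) and in 5.20% of all 32851 windows. They were found for 7 of the 10 neighbours and for 3 of the 42 other members with a window, Adam1b, Adam19 and Adam29. The CRE letters TGACGTCA, which read the same on both strands and do not overlap the AP-1 letters, were in 0 of 57 member windows and 1.79% of all windows.

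Printed are the 100 bases before the start of 6 of the neighbours, plus strand, GRCm38.p6, with AP-1 letters in capitals. Mmp13 and Mmp3 are shown as the bright members with the letters, Mmp12, Mmp1a and Mmp10 as dim members that also hold them, and Mmp8 as a member that was 4.14-fold dimmer on high doxycycline than on control without them.
Mmp13, chr9:7272414-7272513: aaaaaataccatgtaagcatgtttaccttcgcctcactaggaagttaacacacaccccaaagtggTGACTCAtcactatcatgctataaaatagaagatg
Mmp12, chr9:7347274-7347373: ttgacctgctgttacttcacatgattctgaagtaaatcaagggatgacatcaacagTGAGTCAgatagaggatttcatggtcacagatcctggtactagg
Mmp3, chr9:7445722-7445821: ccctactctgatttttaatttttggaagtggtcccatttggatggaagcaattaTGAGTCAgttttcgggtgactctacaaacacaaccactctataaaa
Mmp1a, chr9:7464041-7464140: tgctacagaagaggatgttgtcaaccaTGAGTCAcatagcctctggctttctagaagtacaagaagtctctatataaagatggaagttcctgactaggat
Mmp10, chr9:7502242-7502341: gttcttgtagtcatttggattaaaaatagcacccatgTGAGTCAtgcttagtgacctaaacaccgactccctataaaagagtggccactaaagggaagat
Mmp8, chr9:7558329-7558428: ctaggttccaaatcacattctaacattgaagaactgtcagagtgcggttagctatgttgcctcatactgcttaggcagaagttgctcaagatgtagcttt

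The letters begin 35 bases before the start in Mmp13, 46 in Mmp3, 44 in Mmp12, 63 in Mmp10 and 73 in Mmp1a. Mmp12 has 2 listed starts, and the one shown is the one with the letters. These are matches of letters: whether a factor binds there was not measured, and dim and bright neighbours alike held them.

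Of the membrane-anchored MMPs, Mmp14 and Mmp23 were dimmer on the arrays labelled high doxycycline and tumor than on control. Mmp14, which cuts fibrillar collagen at the cell surface and activates the precursor of Mmp2, had 6734 on the control array, 2875 on high doxycycline and 3220 on tumor (2.34-fold and 2.09-fold dimmer). It stayed above the medians of all 3 arrays, unlike Mmp2. Shifting the arrays to a common median brought its log2 difference between tumor and control from -1.06 to -0.88. Mmp23, held in the membrane by its amino-terminal part, had 1094, 199 and 221 (5.46-fold and 4.93-fold dimmer).

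Mmp17, which has a lipid anchor, was the only member at least 2-fold dimmer on tumor than on high doxycycline by the probe set used for each gene. Another probe set of Adamts9, described below, also passed that fold. Mmp17 had 2113 on the control array, 3133 on high doxycycline and 1207 on tumor, a 2.60-fold difference between the last pair. Control stood between them, 1.48-fold below high doxycycline and 1.75-fold above tumor. Mmp24, known from the nervous system, had 962, 776 and 759, close together on all arrays. Mmp16, at 102 on each array, and Mmp25, at 115, 92.2 and 92.2, were below the median throughout.

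**Figure D2:**
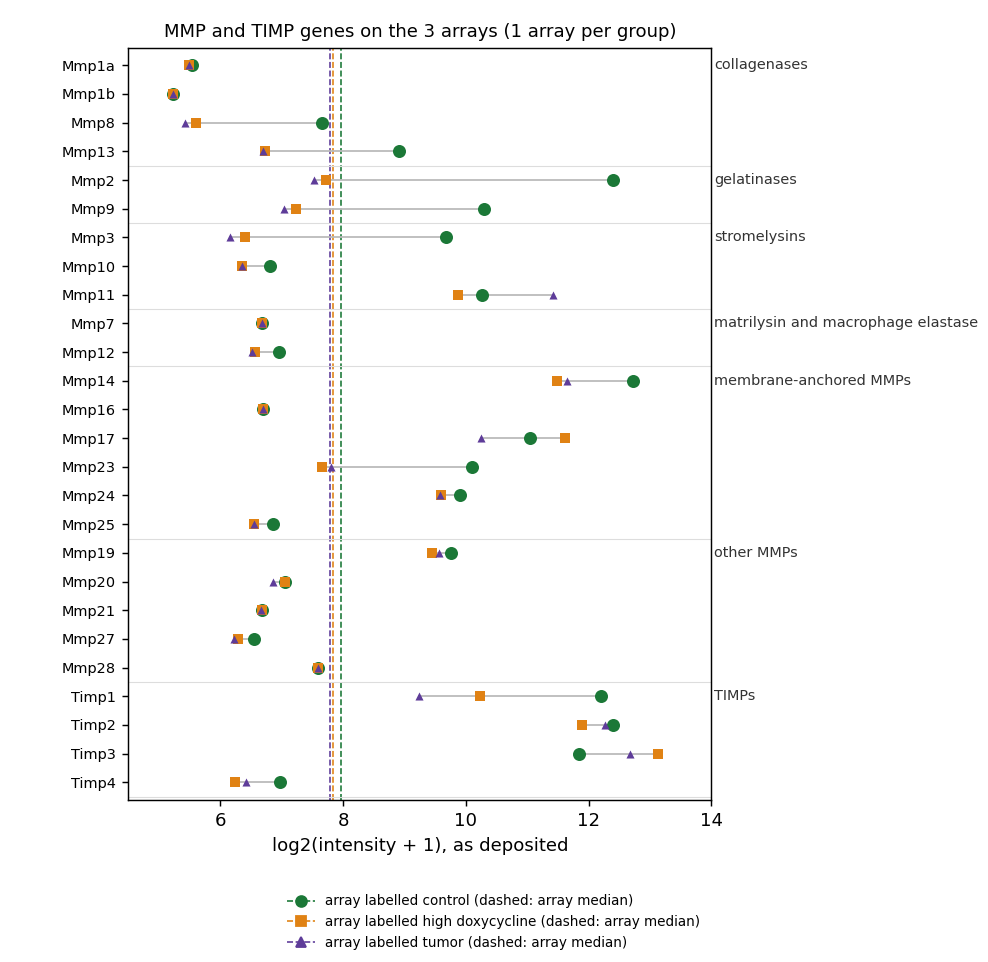
Each row is a gene, the x axis is log2(intensity + 1), symbols are the 3 arrays (1 per group, no error) and dashed lines the array medians. Mmp2, Mmp3, Mmp9, Mmp13 and Mmp23 have the control array far to the right, Mmp11 has tumor furthest right, and Mmp17 and Timp3 have high doxycycline furthest right.

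Inhibitors were split. Timp1, a soluble inhibitor of most MMPs that stromal and inflammatory cells make, had 4705 on the array labelled control, 1194 on high doxycycline and 599 on tumor. It was 3.94-fold dimmer on high doxycycline and 7.84-fold dimmer on tumor than on control, and its 1.99-fold difference between tumor and high doxycycline lay just under the fold used. All 3 values were above the array medians. Timp3, which binds to the matrix and inhibits Adam17 and several ADAMTS proteases besides MMPs, went the other way, with 3661, 8949 and 6568. It was 2.44-fold brighter on high doxycycline than on control and 1.79-fold brighter on tumor, and a shift to a common median took the latter log2 difference from 0.84 to 1.03.

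Timp2, an inhibitor that also takes part in the activation of the Mmp2 precursor by Mmp14, had 5379, 3809 and 4934, all within 1.41-fold of control. Its log2 difference between tumor and control of -0.12 became 0.060 after a shift to a common median, so no direction is given. Timp4 was below the median on every array, with 124, 74.2 and 83.9.

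Adam23 and Adam17 were the ADAM genes at least 2-fold brighter on the arrays labelled high doxycycline and tumor than on control. Adam23, a neural adhesion protein without an active protease site and a receptor of Lgi proteins, had 332 on the control array, 1604 on high doxycycline and 2430 on tumor. It was 4.81-fold and 7.29-fold brighter than on control, and 1.51-fold brighter on tumor than on high doxycycline. Its relatives did not share this. Adam22 had 209 on all 3 arrays, an identical value below each median, and Adam11 had 315, 253 and 269.

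Adam17 sheds TNF and ligands of the EGF receptor. Its probe set gave 491 on the control array, 1014 on high doxycycline and 1061 on tumor, 2.06-fold and 2.16-fold above control. These lie just past the fold used, and quantile normalization brought the log2 differences of 1.05 and 1.11 to 0.87 and 0.96, while a pseudocount of 64 brought the first to 0.96. Adam10, the other broadly active sheddase and the one that cuts Notch receptors, was level, with 1577, 1840 and 1833. Adam9 (3407, 2954 and 2911) and Adam15 (3937, 3739 and 3707), also active proteases of many cell types, were level as well. Each of these last 3 genes stood above the 75th percentile of every array, and each stayed within 1.17-fold of control.

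Adam8 and Adam19 were dimmer than on the array labelled control. Adam8, a sheddase of leukocytes, had 1173, 397 and 266 (2.95-fold and 4.40-fold dimmer). Adam19, a meltrin with a role in heart and nerve development, had 956, 480 and 446. Its log2 differences of -0.99 and -1.10 stand on either side of the fold used, and the second became -0.91 after a shift to a common median. Its relative Adam12, the other meltrin, had 214, 121 and 110, below each median, and Adam33 had 340, 232 and 210. Adam28 was at 79.7, 79.7 and 78.6.

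The remaining 22 ADAM genes are best known from testis and epididymis, where several act in fertilization. All 22 lay below the median of every array, with intensities from 24.6 for Adam26a to 160 for Adam1a on the array labelled control. Their log2 differences between high doxycycline and control ran from -0.44 (Adam4) to 0.051 (Adam7). Of these 22 genes 9 had exactly the same value on all 3 arrays. Over all members 14 did so (16.9%), against 13.8% of all genes, and none of the 14 was bright. Between pairs of arrays, bright members such as Adamts1 and Adamts4 had equal values too. Equality held for 26.5% of members (20.1% of all genes) between high doxycycline and control and 19.3% (15.4%) between tumor and control. Between tumor and high doxycycline it held for 30.1% (34.1%). Whether processing made these values equal was not tested. Several of the 22 testis and epididymis genes are close copies of each other, and their probe sets may share signal.

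ADAMTS proteoglycanases cut aggrecan, versican and related molecules, and they ranged from level to strongly different. Adamts5, an aggrecanase, had 1053 on the control array, 147 on high doxycycline and 331 on tumor. It was 7.14-fold dimmer on high doxycycline and 3.17-fold dimmer on tumor than on control, and 2.25-fold brighter on tumor than on high doxycycline. With Mmp11 it was one of the 2 members past the fold upward in that comparison, although its high doxycycline value was below the array median and a pseudocount of 64 took its log2 difference from 1.17 to 0.91. Adamts1, its neighbour in the gene order, had 3724, 3724 and 3892, a level pattern above the 75th percentile on every array. Its control and high doxycycline values were identical, and whether processing made them so was not tested.

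Adamts15 had 466, 125 and 114 (3.71-fold and 4.06-fold dimmer than on control) and was above the median on control alone. Adamts20, with 332, 174 and 152, was 2.17-fold dimmer on tumor than on control, a log2 difference of -1.12 that lay between -0.98 and -0.87 in 3 alternatives. Adamts4, the other classical aggrecanase, had 1281, 754 and 754, a 1.70-fold difference that did not reach the fold used. Adamts8 lay below the median throughout, at 143, 133 and 137.

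Among proteases of procollagen and of cartilage oligomeric matrix protein (COMP), Adamts12 had 378, 115 and 109 (3.28-fold and 3.46-fold dimmer than on control). Adamts14, a procollagen propeptidase, had 376, 191 and 181. Its 2.07-fold difference on tumor fell under the fold in several alternatives, down to a log2 difference of -0.85. Adamts7 had 562, 327 and 327, and Adamts3 had 332, 242 and 242. The other ADAMTS proteases showed no member past 2-fold: Adamts10, known for its role with fibrillin, had 819, 525 and 497, Adamts17 had 806, 654 and 613, and Adamts6, Adamts13, Adamts16, Adamts18 and Adamts19 were below the median on each array.

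ADAMTS-like genes had 2 members of 5 at least 2-fold dimmer in each comparison with control, against 5.55% and 6.82% of all genes. Adamtsl1, also called punctin, had 924 on the control array, 252 on high doxycycline and 306 on tumor (3.65-fold and 3.01-fold dimmer than on control). Adamtsl4, which takes part in fibrillin assembly, had 1115, 409 and 368 (2.72-fold and 3.02-fold). Adamtsl2 had 424, 314 and 424, with the same value on control and tumor, and Adamtsl5 had 516, 501 and 616. Adamtsl3 was below each median.

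**Figure D3:**
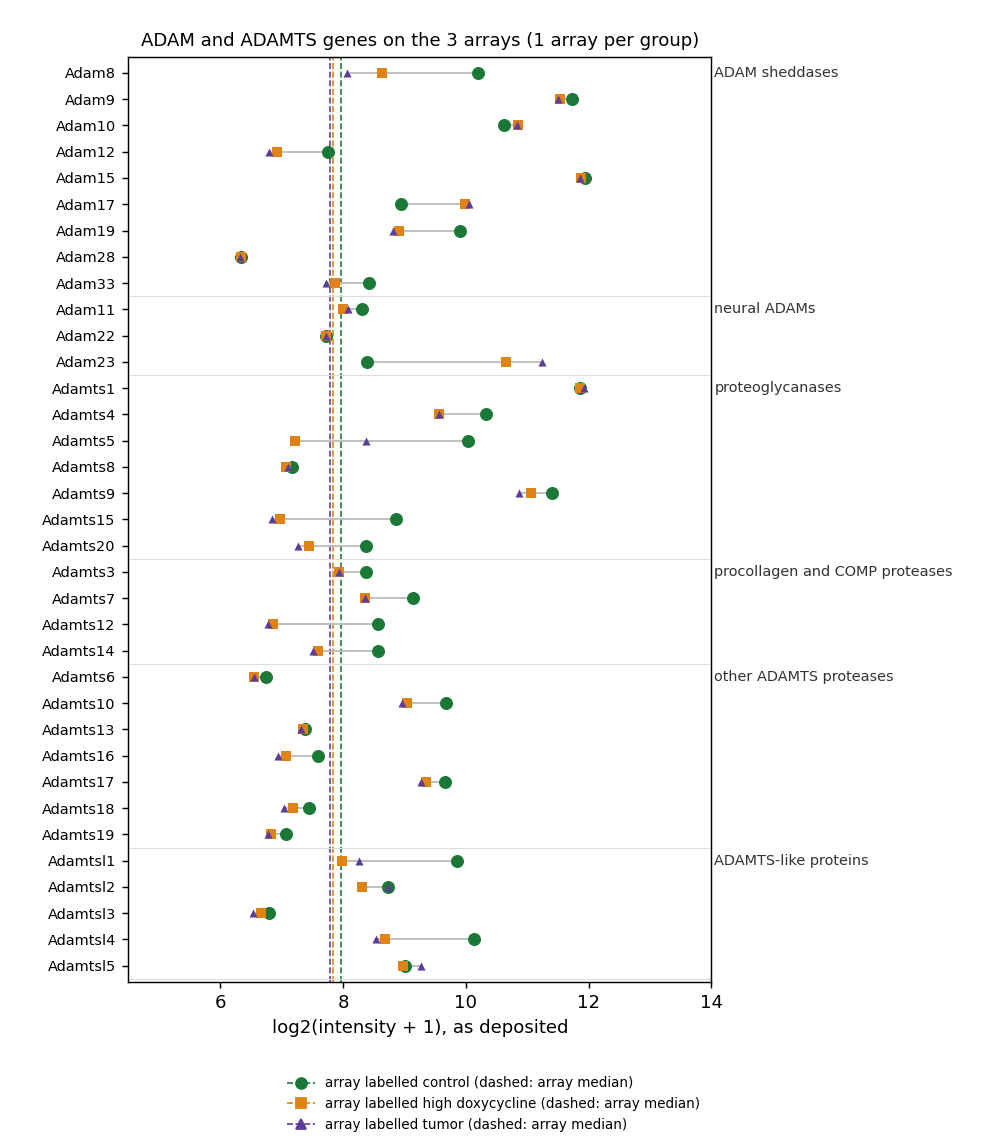
Each row is a gene, the x axis is log2(intensity + 1), symbols are the 3 arrays (1 per group, no error) and dashed lines the array medians. The 22 ADAM genes of testis and epididymis are left out. Adam23 and Adam17 have control furthest left, whereas Adam8, Adamts5, Adamts12, Adamts15, Adamtsl1 and Adamtsl4 have it far to the right.

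For 79 of the 83 genes a single probe set was read, and the 4 others show how far probe sets of a gene can differ. The 6 probe sets of Adamts9, a proteoglycanase, all exceeded the array medians. Their log2 differences between tumor and control ran from -1.69 to -0.032, with 3 of 6 at least 2-fold dimmer, and between high doxycycline and control from -0.92 to 0.33. Between tumor and high doxycycline they ran from -1.08 to 0.00, with a mean of -0.58 and 1 of 6 at least 2-fold dimmer. The brightest of them, with 2714, 2138 and 1865, gave -0.54 for tumor against control and so missed the fold used, whereas the mean over all 6 reached it. No direction is therefore given for Adamts9 between high doxycycline and control.

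Adamtsl1 gave like values from its 2 probe sets, -1.87 and -1.72 for high doxycycline against control and -1.59 and -1.53 for tumor against control. Of 16 probe sets of Adamts3 only 2 were bright on control, and the 16 log2 differences for tumor against control ran from -0.96 to 0.00. Those of Adamts17, with 2 bright probe sets of 5, ran from -0.45 to 0.00.

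**Figure D4:**
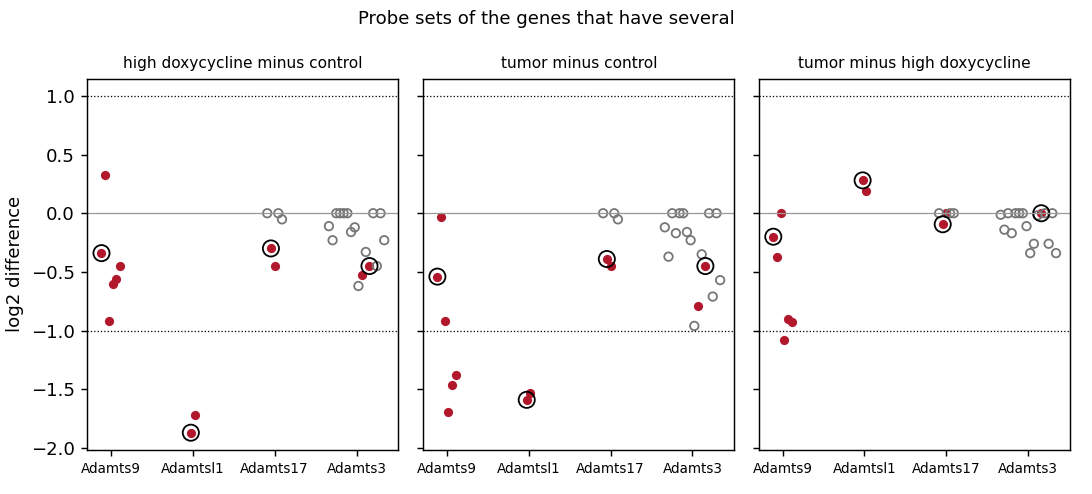
The y axis is the log2 difference of each probe set in the 3 comparisons, for the 4 genes with several. Filled points are bright, open points are not, black rings mark the probe set used for the gene, and dotted lines mark 2-fold. The Adamts9 points spread from -1.69 to -0.032 for tumor against control, while those of Adamtsl1 lie within 0.065 of each other.

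Genes that work with these proteases were read from lists. In the plasminogen system, which activates several MMP precursors, 2 of 4 bright genes were dimmer on high doxycycline than on control and 3 of 4 on tumor (8.45% and 10.2% of all bright genes), and none was brighter (17.4% and 18.5%). Plau, the urokinase gene, had 3237 on the control array, 439 on high doxycycline and 172 on tumor. Plat, the tissue activator gene, had 3115, 2302 and 988, and Plaur, the urokinase receptor gene, had 368, 116 and 102. Between tumor and high doxycycline Plau (2.55-fold) and Plat (2.33-fold) were dimmer, the 2 bright genes of that list, against 1.94% of all bright genes.

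Of 8 bright cathepsin and other matrix protease genes, 3 were dimmer and 1 was brighter than on control in both comparisons. Of all bright genes 8.45% and 10.2% were dimmer and 17.4% and 18.5% brighter, so the single brighter gene is near that share. Ctsk, the collagen-cutting cathepsin of osteoclasts and fibroblasts, had 2137, 108 and 99.1. Ctss, the cathepsin of antigen-presenting cells, had 1391, 88.9 and 88.9, and Htra3 had 3362, 191 and 218. Ctsl, a lysosomal cathepsin, was the brighter gene, with 4080, 8281 and 9544.

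The list of activators and inhibitors, which holds the convertase Furin, the iRhom genes and the tetraspanins that escort Adam10, had 1 brighter and 2 dimmer of 13 bright genes on high doxycycline and 2 brighter and 3 dimmer of 14 on tumor. These counts are near the shares of all bright genes (17.4% and 18.5% brighter, 8.45% and 10.2% dimmer) and say little about the list. Bsg, whose product induces MMPs in neighbouring cells, had 6368, 12813 and 13955, and the tetraspanin gene Tspan17 had 1761, 3344 and 3981. Pcsk5, a convertase gene, had 524, 171 and 164. The iRhom genes, whose products are needed to mature Adam17, ran opposite to Adam17: Rhbdf1 had 1002, 502 and 457 and Rhbdf2 had 323, 160 and 144. Reck, a membrane inhibitor of MMPs, was level with 633, 531 and 558.

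Of 17 bright genes for shed ADAM substrates, 8 were dimmer on high doxycycline than on control and none brighter, and 7 were dimmer and 1 brighter on tumor, against 8.45% and 17.4%, and 10.2% and 18.5%, of all bright genes. The endothelial cadherin gene Cdh5 was 15.4-fold and 19.6-fold dimmer than on control, and Csf1r, the macrophage growth factor receptor gene, 5.60-fold and 6.91-fold. Cx3cl1, a membrane-bound chemokine, had 2719, 748 and 929. The prion protein gene Prnp had 1833, 3511 and 5239. Hbegf, an EGF receptor ligand, had 824, 1018 and 471. It was the only gene of that list past 2-fold between tumor and high doxycycline (2.16-fold dimmer), where 1.94% of all bright genes were at least 2-fold dimmer. Of 14 bright proteoglycan and matrix substrate genes 9 were dimmer in each comparison with control (8.45% and 10.2% of all bright genes). Over the 14 the medians were -2.14 and -2.33, against 0.083 and 0.075 over all bright genes. Among the dimmer ones Col1a1, Col1a2, Col3a1, Dcn and Lum are also fibroblast markers below. Cdh5 is also an endothelial and Csf1r a macrophage marker, so these lists are not separate evidence. The proteoglycan gene Bgn had 6752, 158 and 242, and Ncan, a brain proteoglycan gene and substrate of ADAMTS4, had 275, 737 and 521.

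Most, but not all, markers of cell types that a sarcoma sample could hold were brightest on the array labelled control. Exceptions included the macrophage marker Cd14, with 650 on control, 914 on high doxycycline and 158 on the tumor array, and the muscle marker Mb, with 464, 378 and 754. The adipocyte marker Lep had 66.6 on all 3 arrays. The summed intensity of the 10 fibroblast markers was 38098 on the control array, 2259 on high doxycycline and 2626 on tumor. All 10 were at least 2-fold dimmer in each comparison with control, against 8.45% and 10.2% of all bright genes. The 10 macrophage markers summed to 24730, 2258 and 1222, and the 8 neutrophil markers to 5084, 759 and 721, of which 3, 0 and 0 lay above the array medians. The 8 endothelial markers summed to 12060, 2593 and 1694, the 8 skeletal muscle markers to 28776, 1889 and 2095 and the 6 adipocyte markers to 1756, 699 and 725. Of the adipocyte markers 3, 0 and 0 lay above the array medians. Fabp4 had 847, 87.6 and 143, while Adipoq (56.9, 56.3 and 56.3) and Cidec (212, 185 and 185) were nearly level. No marker can be listed at 0, since the lowest intensity of any array was 20.7. 

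The pigment cell list, named for the melanocytic character of clear cell sarcoma, did not share this pattern, with sums of 2199, 2210 and 1870. On each array 2 of 7 markers were above the median. Mitf alone had 1281, 1344 and 1018, while Dct, Mlana, Tyr and Tyrp1 lay below every median. The sums therefore rest mostly on Mitf and say little about the other markers. Between tumor and high doxycycline, where Mmp11, Adamts5 and Mmp17 differed, the fibroblast markers had a median log2 difference of 0.18 over the 6 bright ones and none passed 2-fold. In that comparison 2 macrophage markers were bright and 1 passed the fold, Cd14 (5.75-fold dimmer on tumor). Of 2 bright endothelial markers 1 passed it, Egfl7 (1574 against 764, 2.06-fold dimmer on tumor), and the muscle marker Mb lay just under it (1.99-fold brighter on tumor). Of all bright genes 1.94% were at least 2-fold dimmer in that comparison. The part of the cell types of these markers in the differences of Mmp11, Adamts5 and Mmp17 was not tested.

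**Figure D5:**
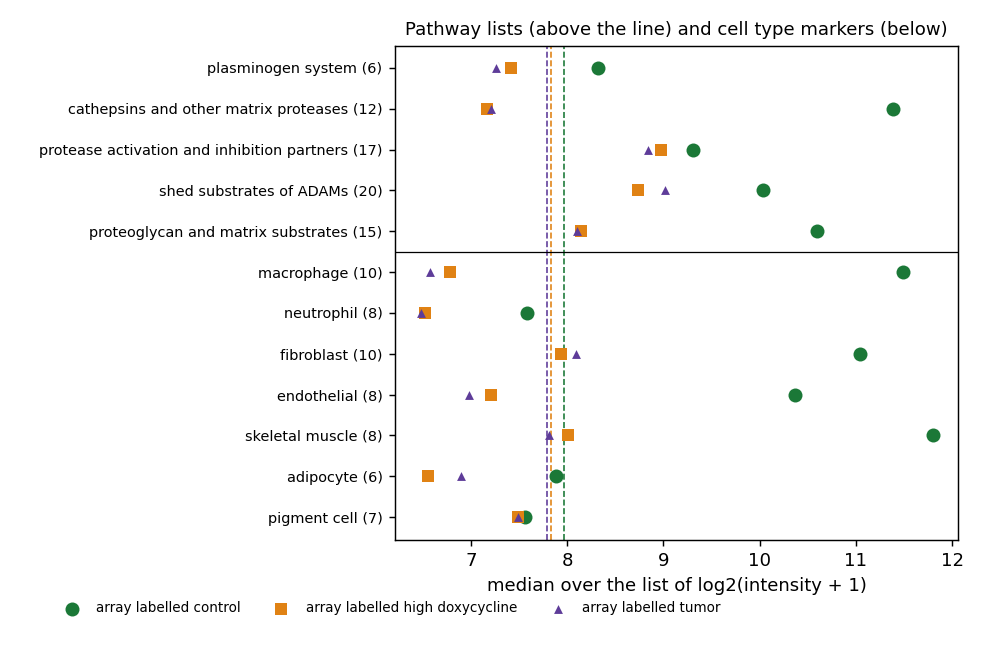
The x axis is the median of log2(intensity + 1) over each list on the 3 arrays, with the number of measured genes in brackets and dashed lines at the array medians. Control lies far to the right of the other arrays for macrophage, fibroblast, endothelial and skeletal muscle markers, at 11.49, 11.04, 10.37 and 11.80. For the pigment cell list the arrays nearly coincide and lie below the array medians.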

How the data were processed

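RNA was extracted with a column kit, labelled with biotin and read on Affymetrix MoGene-1_0-st-v1 arrays, per the labels' protocols. The authors deposited linear intensities, 1 per probe set and array; their background correction, summary and normalization are not given in the sources used here. Groups follow the sample titles. Of 28856 probe sets, 21789 have 1 gene symbol in the platform annotation, 1621 several and 5446 none; those with several or none were left out, among them 2 probe sets shared by members. All 83 members were found by Entrez number in RefSeq (GRCm38.p6). No coordinates of probe sets are given.

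For genes with several probe sets the one brightest over the arrays (mean of log2 values) was used. Differences are of log2(intensity + 1) as deposited, called at 2-fold, for genes bright in the comparison (above the array's percentile 50). With 1 array per group no test was run. The values were read with Python 3.11.15, pandas 2.3.3 and numpy 2.4.6, and the procedure was tested on simulated data. The members and lists were chosen with earlier results of these data known. Named are all TIMPs, every bright member past 2-fold in any comparison, every member above percentile 75 on all arrays, up to 5 genes per pathway list past 2-fold, and the others by range. Names beyond that rule, such as dim members, Reck, Cd14, Mb, Lep and Egfl7, were chosen after their values were seen. Tried as alternatives were pseudocounts of 16 and 64, averaging a gene's probe sets, quantile normalization, shifting arrays to a common median, and a brightness filter at percentile 75 or none.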

Additional observations from a re-analysis of the deposited data

How the results depend on the processing

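Across the 7 alternatives, none of the 38 differences past 2-fold among the named members changed sign. For most alternatives this was fixed in advance, since a brightness filter leaves each difference as it is and a pseudocount cannot reverse it. Averaging probe sets could change only the 4 members that have several. The shift to a common median adds the same amount to every log2 difference of a comparison. It moved the median of all genes only to 0.14, 0.18 and 0.044 in the 3 comparisons, too little to reverse a 2-fold difference. For the others, quantile normalization was thus the only setting that could have reversed a sign. Over the 38 bright members the medians were -0.60 for high doxycycline against control and -0.74 for tumor against control. Over all bright genes they were 0.083 and 0.075. Without a brightness filter the medians over all 83 members were -0.19 and -0.19, as given above, against 0.00 and -0.004 over all genes. Quantile normalization left 1 member at least 2-fold brighter on tumor than on control, of 3. The 2 members brighter on tumor than on high doxycycline became 1 with a filter at percentile 75, which leaves 13 bright members, and 1 with a pseudocount of 64. The other counts and medians stayed within 1.5 times, or within the median disagreement between probe sets of a gene (0.37, 0.38 and 0.055 in the 3 comparisons). A shift to a common median moved the median of all genes to 0.14 for high doxycycline against control and 0.18 for tumor against control. It took 4 named differences under 2-fold and brought 1 past it, against 5 and 2 under quantile normalization. The cause was not tested. No paired analysis was possible because each group has 1 array. Leaving out the array labelled control leaves the comparison of tumor with high doxycycline alone.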
